A study of Mus musculus with 6 samples.

Results

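The 8 genes described here encode proteins of mast cells and basophils: Prss34, Mcpt8, Cpa3, Ms4a2, Fcer1a, Fcer1g, Hdc and Gzmb. They were chosen by name, with earlier results of these data known, and all 8 were found among the 47937 genes of the deposited table. Of these, 7 reached a mean normalized count of 10 and were tested with 11805 genes in all. Gzmb had no read and was not tested. Bulk polyA RNA was sequenced from bone marrow haematopoietic stem cells (HSCs) of wild type C57BL/6 mice, labelled male and 8 weeks old, with treatment marked as not applicable. The marrow came from pooled femora and tibiae. The cells carried the gate lineage-depleted, Kit+, Sca-1+, CD34-, CD48-, Flt3- and Slam1+, and were split by the surface receptor CD93 into a positive (CD93pos) and a negative (CD93neg) fraction with 3 libraries each. The labels call the replicates biological, but which animals, or how many, gave each library is not stated, so p-values measure the spread between these libraries.

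Mast cells and basophils are granule-bearing blood cells that bind IgE through a high-affinity receptor and release histamine and proteases when antigen cross-links it. In mouse bone marrow they arise from progenitors under GATA factors, and basophils need interleukin-3 for their expansion. The receptor has an alpha chain that holds IgE, a beta chain that amplifies the signal and gamma chains that carry it into the cell. Mast cells of tissues store chymases and tryptases, while mouse basophils store the protease encoded by Mcpt8, which is used to recognise them.

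Libraries differed in ways that touch every comparison. Reads in genes numbered 5794528 to 9509304 in CD93pos and 2832653 to 4614396 in CD93neg. CD93neg replicate 1 had no read for 71.0% of tested genes, where CD93neg replicates 2 and 3 lacked reads for 26.4% and 16.0% and the CD93pos libraries for 2.10% to 13.5%. CD93neg replicates 2 and 3 went against the label of male mice, with 2419 and 1143 reads of Xist and none of Ddx3y, Uty, Kdm5d or Eif2s3y. In the CD93pos libraries Xist had 0, 0 and 12 reads, and each of these Y-linked genes was read. CD93neg replicate 1 had 0 reads of Xist and 1 of Eif2s3y. Cd93 itself was read 906, 1001 and 550 times in CD93pos and 0, 419 and 38 times in CD93neg. These are raw reads from libraries of unequal depth. CD93neg replicate 2 had 4614396 reads in genes and CD93pos replicate 3 had 7152750. Relative to those totals Cd93 was higher in CD93neg replicate 2 than in CD93pos replicate 3, so its RNA overlapped between the groups. Markers of HSCs were read in all libraries, with 9 of 9 found in each except CD93neg replicate 1, where 3 of 9 were found. Their sum was 1219 to 1650 CPM in CD93pos and 3379, 2171 and 2053 CPM in CD93neg replicates 1 to 3. CPM is a gene's reads per 1e6 reads assigned to genes. In CD93neg replicate 1 the sum came from Meis1 (2520 CPM), Hlf (852 CPM) and Mecom (6.71 CPM). Procr, Fgd5, Hoxb5, Mllt3, Ly6a and Slamf1 were unread there.

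Mast cell and basophil transcripts were read in every CD93pos library, and most of them in no CD93neg library. Of the 8 genes, 7 had reads in each CD93pos library, while 0, 2 and 1 had reads in CD93neg replicates 1, 2 and 3. Prss34, Mcpt8, Ms4a2, Fcer1a and Hdc were unread in all 3 CD93neg libraries, Cpa3 was read in CD93neg replicate 2 alone, and Fcer1g was read in CD93neg replicates 2 and 3 at higher CPM than in any CD93pos library. Summed over the 8 genes, the CD93pos replicates held 117, 1138 and 734 CPM, in order from 1 to 3, and the CD93neg replicates 0, 125 and 223 CPM. The lowest CD93pos sum lay below both CD93neg replicates that had reads, and all of the CD93neg reads came from Fcer1g and Cpa3. In bulk RNA, more cells of a type and more RNA per cell cannot be told apart.

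**Figure D1:**
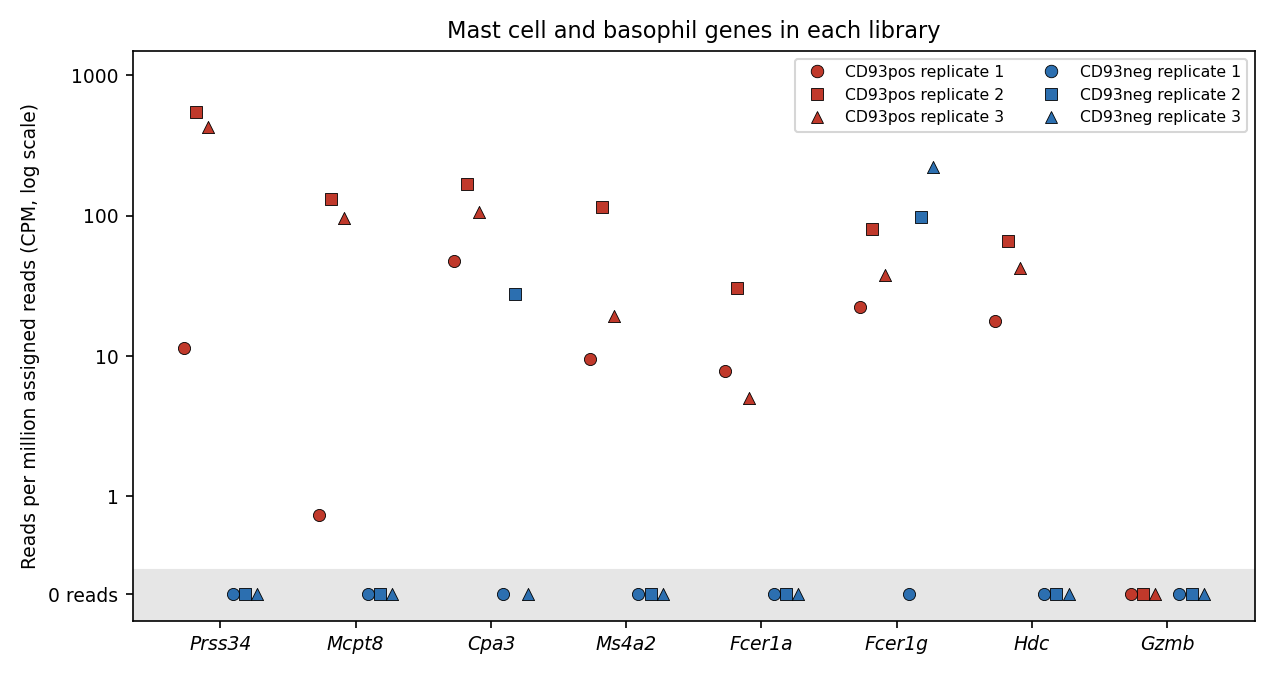
Reads of the 8 genes in each library, as CPM on a log axis, with libraries without a read in the grey band at the bottom. Red points are CD93pos and blue points CD93neg libraries, and the marker shape gives the replicate. Prss34, Mcpt8, Ms4a2, Fcer1a and Hdc have all their CD93neg points in the band, Fcer1g has its 2 highest points in CD93neg, and Gzmb is in the band throughout.

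Promoters of 4 of the genes are shown because they hold the range seen among the CD93pos libraries, from Prss34 and Mcpt8, which moved together, to Ms4a2, the most variable, and Cpa3, the least. Each window runs from 250 bases before to 50 after the RefSeq transcript start (GRCm38.p6), 5′ to 3′ on the gene's strand, with the core letters of GATA factors in capitals where found on either strand. These are AGATAA and also TGATAA, and with a final G they are AGATAG and also TGATAG.
Prss34, chr17:25298144-25298443, plus strand: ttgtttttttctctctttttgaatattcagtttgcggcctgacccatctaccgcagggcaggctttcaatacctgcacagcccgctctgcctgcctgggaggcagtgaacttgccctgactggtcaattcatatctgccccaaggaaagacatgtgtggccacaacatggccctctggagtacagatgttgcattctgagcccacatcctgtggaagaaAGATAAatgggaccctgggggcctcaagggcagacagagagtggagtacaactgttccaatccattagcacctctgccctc
Mcpt8, chr14:56085148-56085447, minus strand: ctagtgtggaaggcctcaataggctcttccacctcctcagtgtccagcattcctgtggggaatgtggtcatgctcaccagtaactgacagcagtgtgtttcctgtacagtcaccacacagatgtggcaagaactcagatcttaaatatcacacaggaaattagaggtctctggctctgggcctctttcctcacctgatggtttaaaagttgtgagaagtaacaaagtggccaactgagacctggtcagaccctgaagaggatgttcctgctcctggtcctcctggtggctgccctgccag
Cpa3, chr3:20242132-20242431, minus strand: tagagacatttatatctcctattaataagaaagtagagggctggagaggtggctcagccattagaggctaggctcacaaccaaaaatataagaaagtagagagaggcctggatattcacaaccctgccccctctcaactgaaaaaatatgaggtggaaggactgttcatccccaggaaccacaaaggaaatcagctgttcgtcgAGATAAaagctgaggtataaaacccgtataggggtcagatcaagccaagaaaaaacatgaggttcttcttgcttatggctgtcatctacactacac
Ms4a2, chr19:11623670-11623969, minus strand: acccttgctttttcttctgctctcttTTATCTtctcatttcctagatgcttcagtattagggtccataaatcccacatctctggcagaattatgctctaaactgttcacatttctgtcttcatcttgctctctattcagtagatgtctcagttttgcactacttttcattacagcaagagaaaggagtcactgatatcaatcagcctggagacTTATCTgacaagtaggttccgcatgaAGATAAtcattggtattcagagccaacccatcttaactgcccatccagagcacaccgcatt
GATA letters, read on both strands, were found in 5 of the 8 members' windows, beside 29.8% of 32851 promoter windows in the table. Those of Prss34 and Cpa3 both held AGATAA, beginning 31 and 46 bases before the start. The Ms4a2 window held 3 matches, at 224, 37 and 11 bases before the start, and the Mcpt8 window held none. The windows of Fcer1a and Hdc had 1 match each, and those of Fcer1g and Gzmb had none. The letters TGTGGT of RUNX factors were found in 5 of 8 windows, beside 16.8% of all windows, and the E-box CAGCTG in 3 of 8, beside 16.3%. A match describes letters and not binding. The 3 motifs share no spelling.

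Among the granule proteases, Prss34, a trypsin-like serine protease made by mouse basophils and some mast cells, had the highest mean and led in CD93pos replicates 2 and 3, while in CD93pos replicate 1 Cpa3 was higher, at 47.6 CPM. Prss34 (ENSMUSG00000056399.1, GRCm38 chromosome 17, 25298394 to 25300165, plus strand) was read 109, 3160 and 3058 times in CD93pos, given here and below in the order of replicates 1 to 3, and never in CD93neg. These reads correspond to 11.5, 545 and 428 CPM. CD93pos replicates 2 and 3 were close to each other, and replicate 1 lay far below both, though above all CD93neg libraries. The mean normalized count was 1479 ± 1276 in CD93pos (SD, n = 3) and 0 in CD93neg. Taking 3 reads as the most that the 3 empty CD93neg libraries together allow, Prss34 was at least 981-fold higher in CD93pos. With 1 library left out the bound ran from 548-fold, without CD93neg replicate 2, to 1673-fold, without CD93pos replicate 1. Such bounds pool the reads of each group and cover counting error only, not the spread between libraries. Amplified reads are also not independent molecules.

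Mcpt8, the basophil serine protease, followed the same library order with a wider gap. Mcpt8 (ENSMUSG00000022157.7, chromosome 14, 56082166 to 56085273, minus strand) was read 7, 763 and 687 times in CD93pos and never in CD93neg. CD93pos replicate 1, with 0.736 CPM, held less than a count of 0 allows in CD93neg replicates 1 and 3, which is 1.06 and 0.999 CPM, so it could not be told from them at their depth. Replicates 2 and 3 had 132 and 96.0 CPM. Mcpt8 was at least 226-fold higher in CD93pos by the summed group. That bound does not hold for CD93pos replicate 1 alone, whose 0.736 CPM stands beside a pooled CD93neg floor of 0.287 CPM. Without CD93neg replicate 2 the bound was 126-fold, without CD93pos replicate 2 it was 145-fold, and without CD93pos replicate 1 it was 390-fold.

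Cpa3, carboxypeptidase A3, is a granule exopeptidase of mast cells and basophils that mouse progenitors also transcribe. Cpa3 (ENSMUSG00000001865.2, chromosome 3, 20215620 to 20242181, minus strand) was read 453, 973 and 756 times in CD93pos and 0, 127 and 0 times in CD93neg. The groups did not overlap, with the lowest CD93pos library at 47.6 CPM and CD93neg replicate 2 at 27.5 CPM. Mean normalized counts were 481 ± 282 for CD93pos against 40.3 ± 69.8 for CD93neg (SD, n = 3 per group). Among the 7 genes read, Cpa3 and Fcer1g alone had reads in a CD93neg library.

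Gzmb, granzyme B, a protease of cytotoxic lymphocytes that mouse mast cells can also make, was not detected. Gzmb (ENSMUSG00000015437.4, chromosome 14, 56258838 to 56262260, minus strand) had 0 reads in all 6 libraries. A count of 0 allows up to 0.315, 0.518 and 0.419 CPM in CD93pos replicates 1, 2 and 3 and up to 1.06, 0.650 and 0.999 CPM in CD93neg. Its neighbours in the granzyme cluster, Gzmc, Gzmf and Gzmn, were also unread in every library.

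The genes of the IgE receptor did not behave alike. Fcer1a, the IgE-binding alpha chain (ENSMUSG00000005339.10, chromosome 1, 173221284 to 173227214, minus strand), was read 74, 176 and 36 times in CD93pos and never in CD93neg. Ms4a2, the beta chain (ENSMUSG00000024680.12, chromosome 19, 11615523 to 11623719, minus strand), was read 90, 668 and 139 times in CD93pos and never in CD93neg. Both were highest in CD93pos replicate 2, with no overlap between the groups. The alpha chain gene was at least 44.4-fold higher in CD93pos. That bound was 23.0-fold without CD93pos replicate 2 and 24.8-fold without CD93neg replicate 2. For the beta chain gene the bound was 139-fold. It was 47.9-fold without CD93pos replicate 2, 77.7-fold without CD93neg replicate 2 and 217-fold without CD93pos replicate 1.

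Fcer1g encodes the gamma chain, which other Fc receptors of myeloid cells share. Fcer1g (ENSMUSG00000058715.11, chromosome 1, 171229572 to 171234365, minus strand) was read 211, 468 and 272 times in CD93pos and 0, 452 and 671 times in CD93neg. The mean normalized count was 212 ± 142 for CD93pos against 493 ± 527 for CD93neg (SD, n = 3 per group). In CPM, CD93neg replicates 2 and 3 lay above all CD93pos libraries and CD93neg replicate 1 below them, so the groups overlapped. Per kilobase of exonic sequence, the gamma chain gene had 25.4, 92.4 and 43.5 CPM in CD93pos, against 7.80, 30.4 and 5.04 for the alpha chain and 3.36, 41.0 and 6.91 for the beta chain. On that scale the level of the gamma chain gene was the highest of the 3 in each CD93pos library. In CD93neg replicates 2 and 3 it was at 112 and 256 CPM per kilobase while both partners were unread. Exonic length was taken over all annotated isoforms, which understates genes with rare long isoforms.

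The 6 other Fc receptor genes listed for comparison, 4 of them tested, included 0 that limma called. Fcgr1, an IgG receptor of monocytes, was read in CD93neg replicate 3 alone, with 80 reads. Fcgr2b, the inhibitory IgG receptor, was read 57, 118 and 176 times in CD93pos and 0, 0 and 153 times in CD93neg. Fcgrt, the neonatal Fc receptor, had 384, 474 and 574 against 0, 1068 and 406. Each of these 3 overlapped between the groups. Neutrophil markers reached 0, 12570 and 8452 CPM together in the CD93neg replicates, against 288, 17.9 and 93.8 CPM in the CD93pos ones, with 0, 10 and 9 of 10 read in CD93neg. B lineage markers summed to 0.353, 6619 and 14739 CPM in CD93neg and to 63.1 to 75.6 CPM in CD93pos, with 1, 6 and 7 of 8 read in CD93neg. Most of the CD93pos sums came from Cd79b, at 61.4, 62.8 and 48.8 CPM. Igkc alone gave 6255 and 14306 CPM in CD93neg replicates 2 and 3. Those CD93neg libraries are the same ones in which Fcer1g was read, and the part of these cells in the Fcer1g reads was not tested.

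Hdc, histidine decarboxylase, makes histamine and was unread in CD93neg. Hdc (ENSMUSG00000027360.5, chromosome 2, 126593667 to 126619299, minus strand) was read 168, 385 and 302 times in CD93pos and never in CD93neg. It was the most even over CD93pos of the 5 genes without a CD93neg read, at 17.7, 66.4 and 42.2 CPM. The bound was 133-fold, or 74.1-fold without CD93neg replicate 2. Per kilobase the order of the mean levels in CD93pos was Prss34 (269 ± 230 CPM per kilobase), Mcpt8 (76.3 ± 67.8), Cpa3 (70.6 ± 39.7), Fcer1g (53.8 ± 34.7), Ms4a2 (17.1 ± 20.8), Fcer1a (14.4 ± 13.9) and Hdc (6.59 ± 3.82), each as SD with n = 3. In CD93pos replicate 1 the order was another, led by Cpa3 (31.4 CPM per kilobase) and Fcer1g (25.4), with Prss34 at 9.40 and Mcpt8 last at 0.738. Neighbours in the order of the means differed by less than the SD of the higher one, except Fcer1g and Ms4a2, whose means lay further apart than either SD.

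By limma across all genes, no member passed. limma called 0 of the 7 tested genes, and 0 of all 11805 higher (0%), at an adjusted p under 0.05. At an unadjusted p under 0.05 limma found 6 of the 7 higher, beside 11.8% of all tested genes, and 0 of the 7 lower, beside 0.381%. Hdc had a fold change of 7.36 on the log2 scale, with a standard error (SE) of 1.32 and 0.0558 as its limma adjusted p, the smallest of any gene and shared by 223 genes. Prss34 had 9.28 with an SE of 1.87 (limma adjusted p = 0.0561). For Ms4a2 and Fcer1a the log2 fold changes were 6.96 and 5.60 (SE 1.46 and 1.36; limma adjusted p = 0.0596 and 0.0838). For Mcpt8 and Cpa3 they were 6.68 and 6.41 (SE 2.05 and 2.29, limma adjusted p = 0.178 and 0.277). The groups did not overlap for these 6 genes, and none passed after adjustment over all tested genes. In simulated data limma recovered 2% of genes changed by 6 on the log2 scale at a coefficient of variation of 1.64, which edgeR estimated here. At a coefficient of 0.3 it recovered 100%, with 10 false calls. The simulation gave all genes the same spread and did not copy the many unread genes of CD93neg replicate 1. It therefore cannot say why no member passed. Fcer1g had 1.25 with its SE at 2.87 (limma adjusted p = 0.820), opposite to the order of its mean normalized counts. Fold changes are on the log2(normalized count + 1) scale, and for genes at 0 in a group they depend on that added 1 and are no bound.

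These values stand beside a background that also lay toward CD93pos. The median log2 fold change of all tested genes was 2.36 with all 6 libraries, and 79.9% lay above 0. Without CD93neg replicate 1 the median was 0.44 for all tested genes and 6.68 for the members. With all 6 libraries, all 7 tested members lay above 0, with a median of 6.68. However, 5 of them passed the filter on low values only through their CD93pos reads and had to lie there. Groups did not overlap for 6 of the 8 members, higher in CD93pos, beside 18.3% of all tested genes, and were lower without overlap for 0, beside 1.92%. Of the 8, 5 were read in every CD93pos library without a CD93neg read, beside 4.60% of all tested genes. Both counts include Mcpt8, whose 7 reads in CD93pos replicate 1 could not be told from CD93neg replicates 1 and 3 at their depth. As the members were chosen with earlier results of these data known, such shares are descriptions and not independent tests. Quantile normalization moved the median of all genes to 0.02 and that of the members to 3.08, with Hdc at 3.44, Mcpt8 at 3.08, Ms4a2 at 2.93 and Fcer1a at 1.01. Fcer1g alone among the members then turned in direction, to -1.41. With an added count of 10 the median of the members was 3.93.

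Other tests and other sets of libraries gave other counts. edgeR's quasi-likelihood test on the recovered reads called 0 of the 7, with 5 at an unadjusted p under 0.05, beside 10.5% of all tested genes. Of the members, 5 were called higher in the authors' deposited table, beside 5.58% of all genes with an adjusted p there, and 0 were called lower, beside 0.389%. In the authors' deposited table the adjusted p was 0.000121 for Prss34, 0.00323 for Mcpt8, 0.00325 for Hdc, 0.00371 for Ms4a2 and 0.0171 for Fcer1a. The authors' deposited table gave 0.546 for Cpa3 and a log2 fold change of -1.22 for Fcer1g. Fcer1a lost its DESeq2 call without CD93pos replicate 1, 2 or 3 (adjusted p = 0.0970, 0.201 and 0.0891), and Ms4a2 without CD93pos replicate 2 (adjusted p = 0.0913). Cpa3 gained a DESeq2 call without CD93neg replicate 2 (adjusted p = 0.00297). With CD93neg replicate 3 left out, limma called Hdc, Ms4a2, Fcer1a and Prss34 (adjusted p = 0.00784, 0.0198, 0.0263 and 0.0354), and 1873 of 11529 genes in all. Without CD93pos replicate 2 it called Hdc, Ms4a2 and Fcer1a (adjusted p = 0.0269 each) and 707 of 11665 genes in all. Without CD93neg replicate 1 it called 0 members, and the log2 fold change of Fcer1g was -1.88. Without CD93neg replicates 2 and 3, which went against the label, CD93neg was the sparse replicate 1 alone, taken to vary as CD93pos does. The median log2 fold change was then 7.36 for the members and 5.92 for all tested genes.

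**Figure D2:**
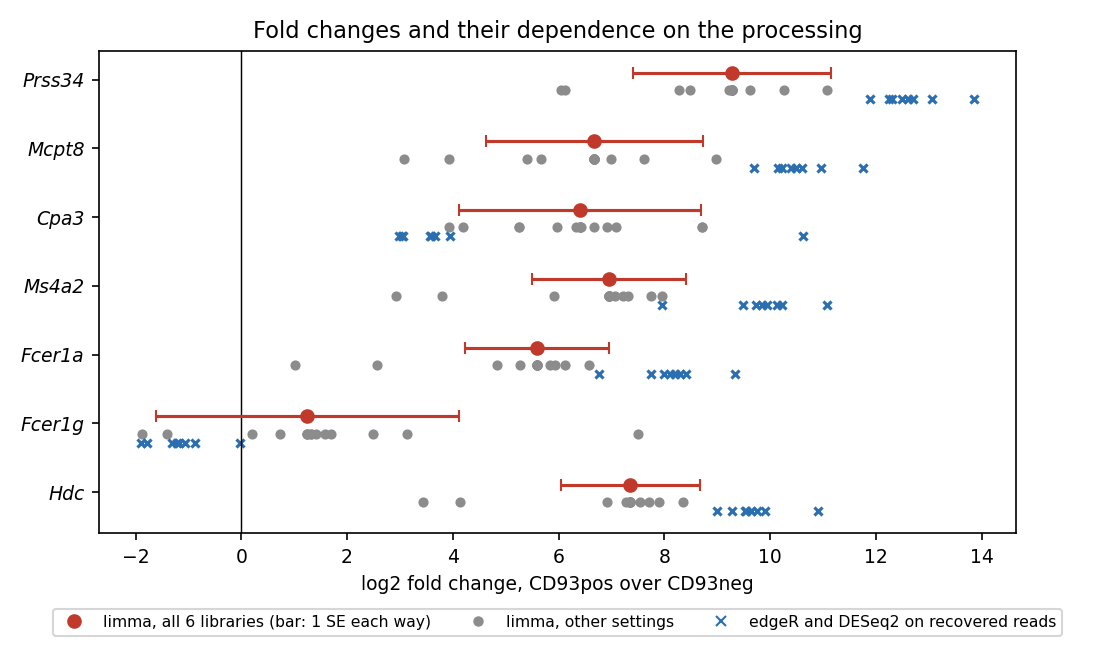
The log2 fold change of the 7 tested genes, CD93pos over CD93neg. Red points and bars are limma on all 6 libraries with 1 SE each way, grey points are limma under the other settings, and blue crosses are edgeR and DESeq2. Fcer1g has values on both sides of 0, from -1.90 to 7.51, while the other 6 genes lie above 0 under every setting shown.

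Among the CD93pos libraries the genes kept a common order but not a common level. All 7 genes read were highest in CD93pos replicate 2, where 39.5% of the 9968 tested genes read in all 3 CD93pos libraries had their highest CPM. In 6 of the 7, the exception being Fcer1a, replicate 3 came next and replicate 1 last, an order that 16.2% of those genes had. The size of the difference varied widely between the members. From replicate 1 to replicate 2, CPM was 3.52-fold higher for Cpa3, 3.64-fold for Fcer1g, 3.76-fold for Hdc and 3.90-fold for Fcer1a. It was 12.2-fold higher for Ms4a2, 47.6-fold for Prss34 and 179-fold for Mcpt8, against a median of 0.987-fold over all those genes. Ms4a2 and Fcer1a also differed between replicates 2 and 3, by 5.93-fold and 6.03-fold, where Prss34 and Mcpt8 differed by 1.28-fold and 1.37-fold. The coefficient of variation over the 3 libraries ran from 56.2% for Cpa3 to 122% for Ms4a2, against a median of 36.2%. Since the genes share these 3 libraries, their common order is a description of the libraries.

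**Figure D3:**
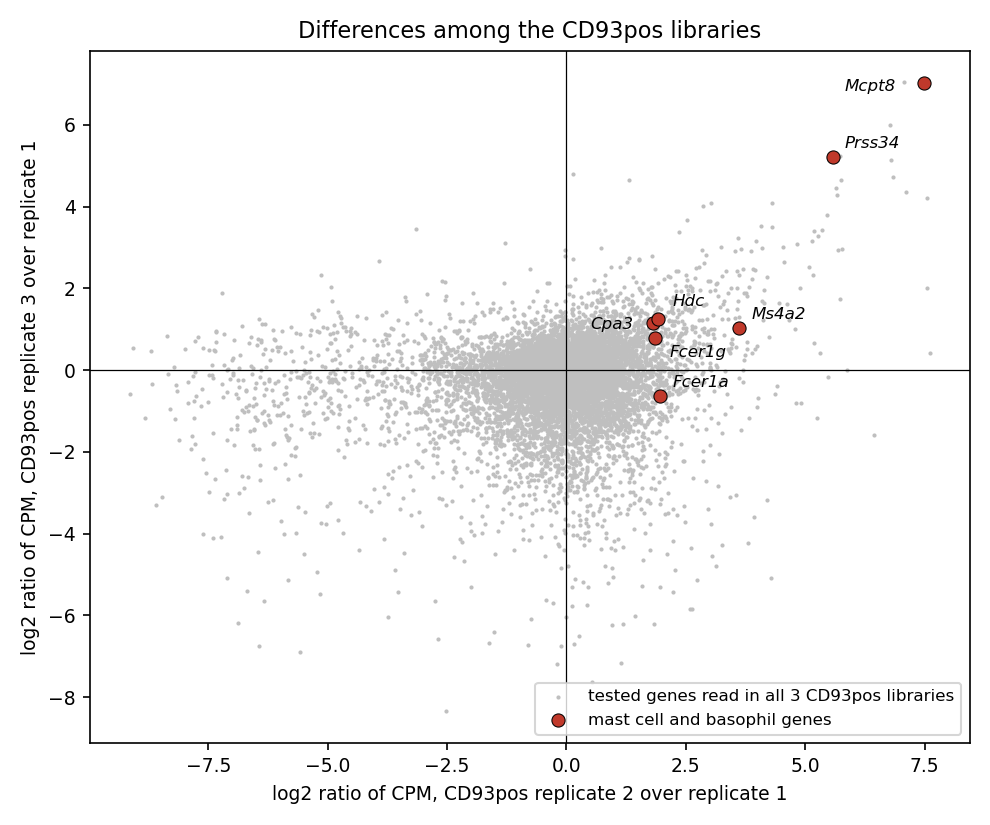
For each tested gene read in all 3 CD93pos libraries, the log2 ratio of CPM in replicate 2 over replicate 1 (horizontal) and in replicate 3 over replicate 1 (vertical). Grey points are all 9968 genes and red points the 7 members. Mcpt8 and Prss34 lie at the far upper right, with 179-fold and 47.6-fold more CPM in replicate 2, and the other 5 lie to the right of 0.

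The make-up of the reads therefore differed between CD93pos libraries. In replicate 1, Cpa3 held 40.7% of the summed CPM of the 8 genes, Fcer1g 19.0% and Hdc 15.1%, while Prss34 held 9.80% and Mcpt8 0.629%. In replicates 2 and 3, Prss34 held 47.9% and 58.2%, and Mcpt8 11.6% and 13.1%. Cpa3 held 14.8% and 14.4% there, and Hdc 5.84% and 5.75%. Prss34 thus held the largest share in replicates 2 and 3 and Cpa3 in replicate 1. Cell type markers differed among the same libraries, with megakaryocyte markers at 1355, 649 and 1218 CPM and erythroid markers at 384, 308 and 651 CPM in CD93pos replicates 1, 2 and 3, and their part in these shares was not tested.

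**Figure D4:**
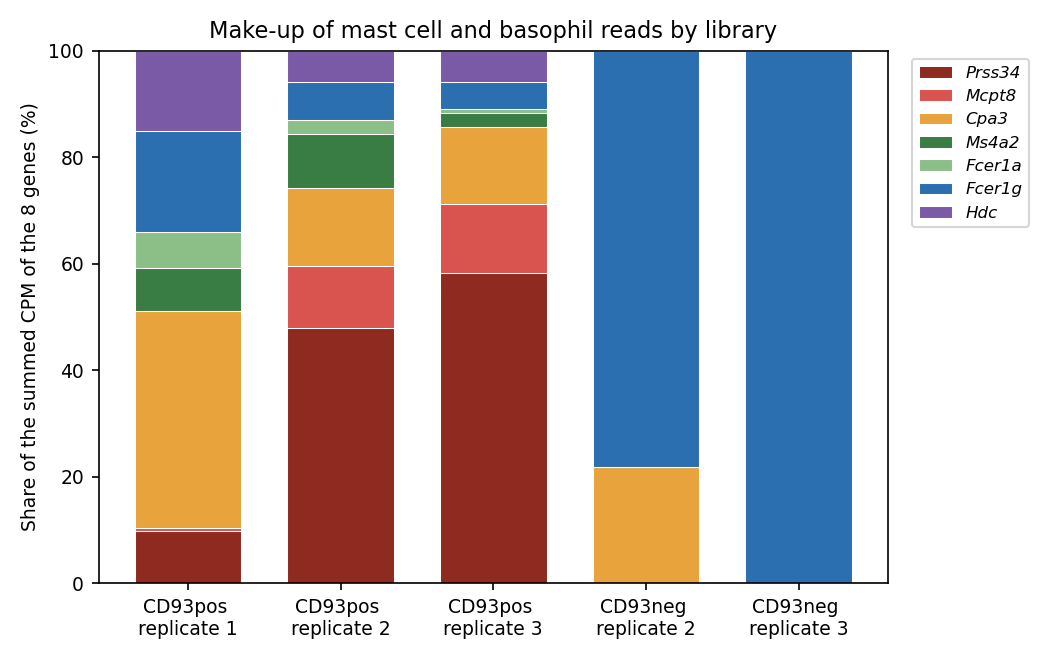
Share of each gene in the summed CPM of the 8 genes, by library, in percent. CD93neg replicate 1 had no read of any of them and is left out. Prss34 and Mcpt8 together fill most of the bars of CD93pos replicates 2 and 3, Cpa3 is the largest part of CD93pos replicate 1, and Fcer1g fills CD93neg replicate 3.

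Neighbouring genes, taken by position alone, did not share the reads of Prss34 and Mcpt8. Prss34 lies in the tryptase cluster, where Prss28 and Prss29, 8481 and 18489 bases away, and the mast cell tryptase gene Tpsab1, 43080 bases away, had 0 reads in all libraries. Mcpt8 lies in the chymase and granzyme cluster, where Mcpt4, Mcpt2 and Mcpt9 on one side and Gzme and Gzmd on the other also had 0 reads. Ctsg, the neutrophil protease cathepsin G, 14608 bases from Mcpt8, was read 98, 102 and 244 times in CD93pos and 0, 599 and 0 times in CD93neg. Ms4a3, a granulocyte and monocyte progenitor gene 5777 bases from Ms4a2, was read 47, 53 and 121 times in CD93pos and 0, 230 and 0 times in CD93neg. No annotated exon of another gene overlaps those of the 8 members.

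The listed markers of mature mast cells were unread in every library. Cma1 and Mcpt4, chymases, Tpsb2, a tryptase, and Mrgprb2, a receptor of connective tissue mast cells, had 0 reads in all 6 libraries. Of the 10 protease genes listed for tissue mast cells, 9 were unread everywhere and Ctsg alone was tested. Mcpt8, Prss34 and Cd200r3, the 3 genes listed for basophils, summed to 19.6, 677 and 546 CPM in CD93pos and to 0 in each CD93neg library. Cd200r3, an activating receptor of basophils and mast cells, had 70, 0 and 159 reads in CD93pos, and so was unread in the library with the most Mcpt8. Since some mast cells also use Prss34 and Cd200r3, and Cpa3, Hdc, Mitf and Il1rl1 belong to both or to mast cells, the lists do not separate the 2 cell types here. Eosinophil markers were low, at 12.5 to 17.2 CPM in CD93pos and 0 to 76.9 CPM in CD93neg, with Epx, Prg3, Ear1 and Ear6 of the 9 at 0 throughout. Of 11 markers of natural killer and cytotoxic T cells, Prf1 and Gzmc were at 0 throughout. The sum of the 11, 203 to 414 CPM in CD93pos and 18.9 to 247 CPM in CD93neg, overlapped. Most of the CD93pos sums came from Nkg7 alone, at 335, 160 and 384 CPM, against 247, 18.6 and 43.0 CPM in CD93neg. Gzma, Gzmk, Ncr1, Cd3e, Cd3g and Cd8a had at most 3.63 CPM in any library.

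**Figure D5:**
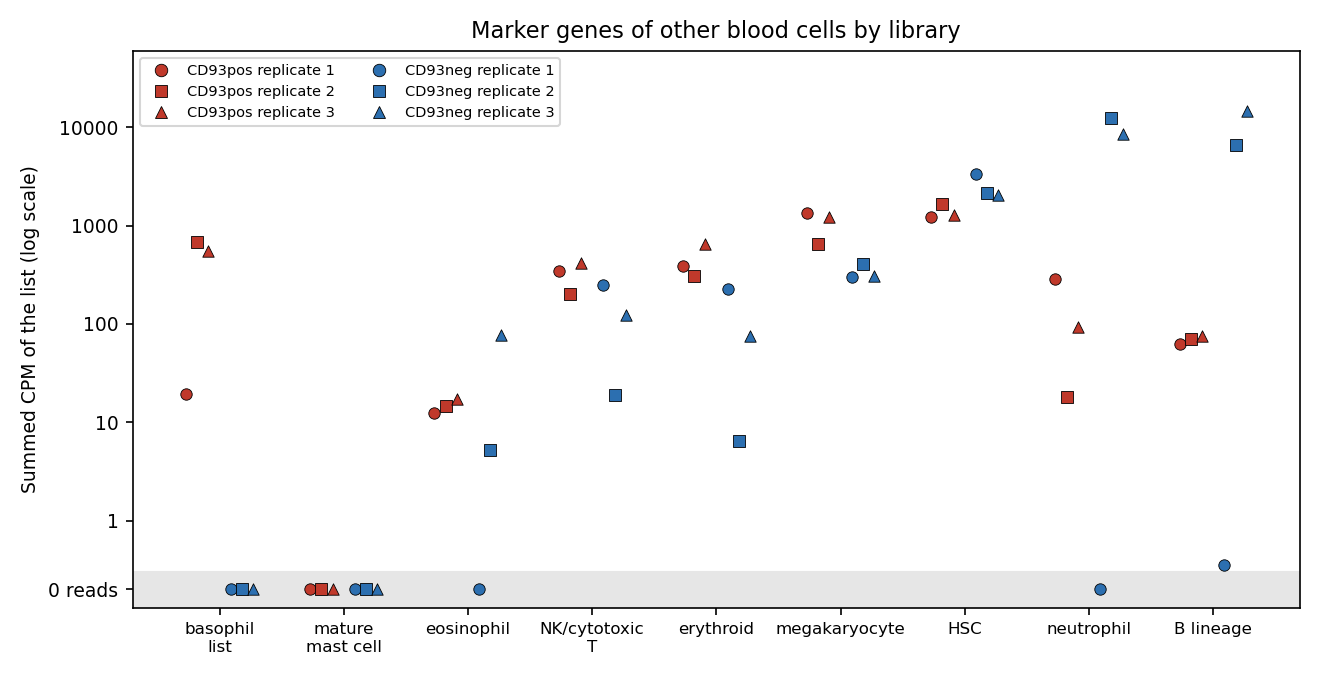
Summed CPM of the marker lists in each library, on a log axis, with libraries without a read in the grey band. Red points are CD93pos and blue points CD93neg libraries. The genes listed for basophils are read in the CD93pos libraries alone, those listed for mature mast cells in none, and neutrophil and B lineage markers mostly in CD93neg replicates 2 and 3.

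Companion genes of the wider mast cell and basophil machinery gave values near the background of all genes. Of 75 companion genes in 8 lists, 53 were tested, and limma called 0 higher and 0 lower. Before adjustment 5 were higher and 1 was lower at a limma p under 0.05, beside 11.8% and 0.381% of all tested genes. edgeR called 0, with 4 higher and 1 lower before adjustment, beside 10.5% of all tested genes in either direction. DESeq2 called 2 of the 53 higher, beside 5.58% of all genes. Of the 53, 75.5% lay above 0, against 79.9% of all tested genes, and their median log2 fold change was 2.49, against 2.36. Companion calls by limma numbered 7 without CD93neg replicate 3, where 1873 of 11529 genes were called in all. They numbered 4 without CD93pos replicate 2, where 707 of 11665 genes were called.

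Of the 53 tested companion genes, 2 were read in every CD93pos library and in no CD93neg one, Alox5 of lipid mediator synthesis and the receptor gene Il1rl1, a pattern that 4.60% of all tested genes had. Alox5, the lipoxygenase that begins leukotriene synthesis, was read 119, 218 and 181 times in CD93pos and never in CD93neg, a difference of 6.68 on the log2 scale (SE 1.29, limma adjusted p = 0.0558). Pla2g4a, the phospholipase that releases arachidonic acid, had 3604, 1607 and 2241 reads against 0, 1259 and 798. Ptgs1, a cyclooxygenase, had 1819, 891 and 999 against 0, 951 and 752. In CPM these were 191, 154 and 140 against 0, 206 and 250, so CD93neg replicates 2 and 3 lay above every CD93pos library. Of the 6 tested genes of this list 5 lay above 0 and limma called 0. The groups did not overlap for Alox5, nor for Pla2g4a, at 277 to 379 CPM in CD93pos against 0, 273 and 266 CPM in CD93neg, and they overlapped for Ptgs1.

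Receptors of the cell surface were mixed, with 7 of 11 tested above 0 and 0 called by limma. Il1rl1, the receptor of interleukin-33, was read 140, 22 and 51 times in CD93pos and never in CD93neg (5.08 on the log2 scale, SE 1.30, limma adjusted p = 0.0982). Its highest library was CD93pos replicate 1, where 6 of the members were lowest. Csf2rb2, a beta subunit of the interleukin-3 receptor, was read 70, 0 and 71 times in CD93pos and never in CD93neg. DESeq2 on the recovered reads called Alox5 and Il1rl1 (adjusted p = 0.00664 and 0.0402).

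Signalling genes below the IgE receptor were read in both groups. Of 12, all tested, 9 lay above 0 and limma called 0. Ptpn6, the phosphatase SHP-1 that restrains the receptor, was read 2586, 2156 and 2677 times in CD93pos and 3805, 3294 and 1568 times in CD93neg, a difference of -1.33 on the log2 scale (SE 0.45, limma adjusted p = 0.244). Its normalized counts, 1513 ± 288 for CD93pos against 4164 ± 2400 for CD93neg (SD, n = 3 per group), did not overlap. Plcg1, a phospholipase C, had 331, 364 and 185 reads against 0, 3 and 54. Lat2, an adaptor of mast cells and B cells, had 279, 73 and 105 against 0, 0 and 61. The kinases and adaptors of this list are also used by other blood cells.

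Granule storage and transcription factor genes gave no call by limma either. Of 6 storage genes 4 lay above 0. Slc18a2, the vesicular transporter that loads histamine, was read 2796, 1592 and 361 times in CD93pos and 8206, 1275 and 305 times in CD93neg, so unlike Hdc it was read in every library. Vamp8, a protein of granule fusion, had 3497, 2552 and 2534 reads against 0, 2323 and 1210. In CPM these were 368, 440 and 354 against 0, 503 and 403, so the highest library was CD93neg replicate 2. Ndst2, an enzyme of heparin synthesis, had 237, 137 and 97 reads against 0, 0 and 144. Of 9 tested transcription factors 7 lay above 0. Gata1, a factor of mast cells, erythroid cells and megakaryocytes, was read 2036, 358 and 1939 times in CD93pos and 0, 560 and 0 times in CD93neg (limma adjusted p = 0.411), and was thus lowest in the CD93pos library where the members were highest. Mitf, a mast cell and pigment cell factor, had 92, 60 and 88 against 0, 0 and 17, and Runx1, a factor of HSCs and many lineages, had 987, 626 and 1024 against 3921, 1226 and 361.

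Of the cytokine genes, 4 were tested and 0 called by limma, all 4 with values above 0. Il4, the type 2 cytokine that basophils secrete, was read 18, 139 and 105 times in CD93pos and 0, 0 and 2 times in CD93neg (4.66 on the log2 scale, SE 1.53, limma adjusted p = 0.220). Il4 was 1 of 5 companion genes, among 45 read in all CD93pos libraries, that shared the library order of Prss34 and Mcpt8, an order that 16.2% of all such genes had. The other 4 were Lcp2, Fcgrt, Alox5 and Hpgds. Ccl3, a chemokine, had 26, 129 and 332 reads against 0, 59 and 0, and Ccl4 had 54, 54 and 147 against 0, 88 and 37. Il13, Il5 and Il3 were unread in all libraries.

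The genes most like the proteases over the 6 libraries were found by the sum of absolute differences between shares of normalized counts, where 0 means the same shares, over 10624 genes. For Prss34 the closest was Mcpt8 (0.0443), then Foxo4 (0.0483) and Nhlrc1 (0.0833). For Mcpt8 the closest were Foxo4 (0.0187), Prss34 (0.0443) and Nhlrc1 (0.0599). Foxo4, a forkhead transcription factor, was read 2, 65 and 57 times in CD93pos and never in CD93neg, and Nhlrc1, a ubiquitin ligase, had 10, 102 and 86 and none. For Cpa3 the closest were Cenpf (0.0756), Plcxd2 (0.0914) and Pik3c3 (0.108), and Hdc lay at 0.154. Cenpf, a kinetochore protein of dividing cells, was read 1084, 1847 and 1512 times in CD93pos and 0, 170 and 1 times in CD93neg. Fcer1g lay far from all 3, at 1.47 from Prss34, 1.48 from Mcpt8 and 1.24 from Cpa3.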

How the data were processed

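RNA of 6 libraries was grouped by the sample titles into CD93pos and CD93neg. Per the submitters' processing notes, STAR, featureCounts (Subread 1.5.0-p1) and DESeq2 1.26 were used with builds GRCm38 and mm10. Neither the annotation nor the strand setting is known here, so antisense reads may be mixed in. One table the authors deposited holds a signal, the count of each gene over a library size factor. The other, also deposited, holds mean signal, log2 fold change with its error, a Wald score, p-value and adjusted p-value. Whole reads came back for 100% of nonzero values, to within 0.001 of a read. Because many genes are unread in single libraries, the count added before the log changes fold changes.

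limma 3.58.1 (trend, two-sided, Benjamini-Hochberg over all tested genes, threshold 0.05) was run on log2(normalized count + 1) for genes whose mean normalized count reached 10. Alternatives on the recovered reads were edgeR 4.0.16 and DESeq2 1.42.0, in R 4.3.3. The fitting steps were tested on simulated data. Positions and exons are from GENCODE M21 on GRCm38 and promoters from RefSeq. Named genes were the 8 members, up to 3 of each list with the smallest p, and the 3 most like Prss34, Mcpt8 and Cpa3, without predicted genes, pseudogenes, mitochondrial genes and receptor segments. Genes of the library checks, neighbours and markers, and those listed as unread, were named besides. The members and lists were chosen with earlier results of these data known. Alternatives covered the added count, filter, scaling, test, depth, replicate block and each library left out. Leaving out CD93neg replicates 2 and 3 together, and DESeq2 with each library left out, were chosen after seeing the data.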

Additional observations from a re-analysis of the deposited data

How the results depend on the processing

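limma called 0 genes, 0 members and 0 companions. Those counts were also 0 with an added count of 10, without a filter, with a filter of 50, after quantile or TMM normalization, by edgeR and after thinning to 2832653 reads. With an added count of 0.5 they were 206, 2 and 1, by DESeq2 705, 5 and 2, and without CD93neg replicates 2 and 3 they were 8176, 6 and 37. With 1 library left out, limma called 0 to 1873 genes, 0 to 4 members and 0 to 7 companions. The highest of these counts were without CD93neg replicate 3, of 11529 genes tested. DESeq2 without CD93pos replicates 1, 2 or 3 called 310 of 11025, 245 of 11571 and 220 of 10982 genes, with 4, 3 and 4 members and 1 companion each. Without CD93neg replicates 1, 2 or 3 it called 1339 of 12948, 1094 of 12102 and 2446 of 12794 genes. Those included 5, 6 and 5 members and 3, 5 and 9 companions. The log2 fold change of Fcer1g turned to -1.41 under quantile normalization, -1.17 by edgeR and -1.22 by DESeq2. With 1 library left out it ran from -1.88 to 3.14 by limma. By DESeq2 it was -0.87, -1.90 and -1.07 without each CD93pos library and -1.79, -1.31 and -0.03 without each CD93neg library. The other 6 tested members had positive fold changes under all settings run, with Fcer1a as low as 1.01 under quantile normalization. The cause of these shifts was not tested. Whether replicate numbers pair the samples is not known. Correlations of deviations between same-numbered libraries were 0.04, 0.02 and 0.06, against -0.05 to 0.01 between differently numbered ones. With 3 libraries per group such small values cannot decide it. The fit with a replicate block called 24 genes, 0 members and 0 companions. Mcpt8 in CD93pos replicate 1 rests on 7 reads, although that library had the most reads in genes, 9509304. CD93neg replicate 1 had reads for 4429 genes from 2832653 reads. CD93neg replicate 3, of like depth, had reads for 12029 genes from 3003095. A 0 in CD93neg replicate 1 is thus weak evidence of absence, and why so many genes were unread there was not tested.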

Other observations

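The interleukin-3 receptor genes, which serve basophil growth, were unread in the CD93pos library with the most reads of Prss34 and Mcpt8. Il3ra had 160, 0 and 131 reads in CD93pos replicates 1, 2 and 3, and Csf2rb, the common beta chain, had 149, 0 and 1. Csf2rb2 and Cd200r3 were also at 0 in replicate 2 alone of the CD93pos libraries. In all, 7 of 53 tested companion genes were read in CD93pos replicates 1 and 3 and not in 2, beside 10.0% of all tested genes. Il3ra and Csf2rb were outside the rule for named genes and were chosen after their values were seen.

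Gata2, a factor that mast cells, basophils and HSCs share, was read 5136, 2019 and 2217 times in CD93pos and 1, 1508 and 736 times in CD93neg. It was read in every library, and like Il3ra it was chosen after its values were seen. Siglecf, an eosinophil surface receptor, was read 87, 86 and 65 times in CD93pos and never in CD93neg, while Prg2, an eosinophil granule protein, had 218 reads in CD93neg replicate 3 and 7 in CD93pos replicate 1. Klrb1c, the NK1.1 antigen, was read 51, 248 and 174 times in CD93pos and 0, 0 and 158 times in CD93neg. These 3 genes were also chosen after their values were seen.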
